A study of Mus musculus with 11 samples.

Results

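Within the bodies of protein-coding genes, away from any gene start, 1017 H3K27me3 peaks of the lateral ganglionic eminence (LGE) were also present in the medial (MGE) and caudal (CGE) ganglionic eminences and the cortex (CTX). They were selected on the peak lists themselves, so their sharing and position describe the choice and are not findings. A peak of the LGE list on chromosomes 1 to 19 or X was a member when at least 50% of its bases lay under peaks of each of the other 3 lists, when it lay wholly inside a protein-coding gene, and when it was more than 5 kb from the 5′ end of every annotated protein-coding transcript. Of 16851 LGE peaks, 8271 met the sharing limit (49.1%), and 3560 met the limits on position. The members were 6.04% of the LGE peaks and 28.6% of the peaks that met the limits on position, and they lay in 700 genes, called hosts here (4.41% of the genes with any sequence that met the limits on position).

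The peaks came from CUT&Tag, in which an antibody to the modification tethers a transposase that cuts and tags the DNA around it, on nuclei of microdissected forebrain of wild-type C57BL/6J mouse embryos. The 11 samples comprised 2 of MGE and 3 each of CGE, LGE and CTX, about 100000 nuclei a reaction, with no treatment. The study's text places these experiments at E12.5, while the labels' protocol names E12.5 and E14.5 embryos and gives no age for a sample. The protocol also mentions a pool of equal numbers of nuclei from the regions although each sample is labelled with 1, and every region except MGE has 2 samples that share a replicate number. The authors called peaks once per region on merged samples, so each list is a single call, the values below have no replicate error, and no test was made. The lists held 15384 (MGE), 19196 (CGE), 16851 (LGE) and 18785 (CTX) peaks over 24.5, 32.9, 26.4 and 31.2 Mb of the 20 chromosomes, and they carry no read depth.

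H3K27me3, trimethylation of lysine 27 of histone H3, is written by Polycomb repressive complex 2 and is a mark of repressed genes. In embryonic tissue it typically covers CpG-rich promoters of developmental regulators that are silent in the cells at hand, and over some of these genes it spreads as a broad domain. Bodies of actively transcribed genes usually carry little of it. A dissected region mixes progenitors and neurons, and a peak in such tissue does not say which cells carried it.

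Reference sequence under some of the strongest members is shown first, to set exonic beside intronic ones. For each of the members below, the window of 200 bases without annotated UTR that held the most CpG dinucleotides was read from the plus strand of GRCm38 (mm10, RefSeq copy), with every CG in capitals. The 3 members with the largest LGE fold enrichment among those with at least 50% of their bases in exons were in *Slc8a2*, a sodium-calcium exchanger, *Cavin1*, a coat protein of caveolae, and *Ankrd33b*, an ankyrin repeat gene.
Slc8a2 (chr7:16158881-16159080): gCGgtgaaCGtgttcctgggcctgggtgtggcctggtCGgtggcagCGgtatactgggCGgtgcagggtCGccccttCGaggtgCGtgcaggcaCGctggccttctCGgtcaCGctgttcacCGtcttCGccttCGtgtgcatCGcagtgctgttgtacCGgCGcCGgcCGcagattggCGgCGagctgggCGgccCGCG
Cavin1 (chr11:100959046-100959245): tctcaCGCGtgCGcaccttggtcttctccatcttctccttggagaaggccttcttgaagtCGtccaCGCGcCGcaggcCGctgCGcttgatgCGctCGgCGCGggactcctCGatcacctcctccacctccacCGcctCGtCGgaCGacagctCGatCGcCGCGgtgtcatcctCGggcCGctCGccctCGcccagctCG
Ankrd33b (chr15:31297985-31298184): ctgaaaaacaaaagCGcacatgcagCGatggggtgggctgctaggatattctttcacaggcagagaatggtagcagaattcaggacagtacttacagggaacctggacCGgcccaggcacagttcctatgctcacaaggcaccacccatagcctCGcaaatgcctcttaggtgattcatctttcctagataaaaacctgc

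The *Slc8a2* and *Cavin1* windows were coding sequence with 24 and 27 CpG and a GC content of 69.5% and 67.5%. The *Ankrd33b* window held 4 CpG and no exonic base, since windows with annotated UTR were passed over. The 3 strongest members with no exonic base were in *Cntnap5b*, of the contactin-associated family of neuronal adhesion proteins, *Acvr1*, a BMP type I receptor, and *Rora*, a nuclear receptor. They are shown because 2 of them carry almost no CpG.
Cntnap5b (chr1:100180097-100180296): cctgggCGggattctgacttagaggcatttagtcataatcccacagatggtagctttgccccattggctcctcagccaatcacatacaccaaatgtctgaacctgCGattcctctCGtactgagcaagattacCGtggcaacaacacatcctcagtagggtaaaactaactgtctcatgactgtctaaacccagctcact
Acvr1 (chr2:58426033-58426232): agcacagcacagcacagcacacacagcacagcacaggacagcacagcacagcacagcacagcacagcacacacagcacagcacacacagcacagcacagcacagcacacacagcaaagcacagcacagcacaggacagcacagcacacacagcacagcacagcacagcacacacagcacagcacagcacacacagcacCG
Rora (chr9:69099653-69099852): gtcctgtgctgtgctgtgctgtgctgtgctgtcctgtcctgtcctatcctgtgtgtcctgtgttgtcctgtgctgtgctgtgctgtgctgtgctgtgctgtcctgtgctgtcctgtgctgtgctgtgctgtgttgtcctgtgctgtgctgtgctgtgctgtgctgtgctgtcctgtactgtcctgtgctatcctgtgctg

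The *Acvr1* and *Rora* windows were tandem copies of a short unit: 0.785 and 0.841 of their bases, as a fraction, equalled the base 5 positions before, and 100% and 89% of them were soft-masked as repeats in the reference. For contrast, 3 further windows come from the next strongest intronic members with under 50% masked bases, in *Gm26992*, *Sdccag8* and *Igsf21*; this set was added after the values were seen.
Gm26992 (chrX:103447737-103447936): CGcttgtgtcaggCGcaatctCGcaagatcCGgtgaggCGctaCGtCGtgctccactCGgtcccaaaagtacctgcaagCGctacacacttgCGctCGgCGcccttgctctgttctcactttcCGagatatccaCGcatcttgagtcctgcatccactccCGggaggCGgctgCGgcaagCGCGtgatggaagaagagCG
Sdccag8 (chr1:176835616-176835815): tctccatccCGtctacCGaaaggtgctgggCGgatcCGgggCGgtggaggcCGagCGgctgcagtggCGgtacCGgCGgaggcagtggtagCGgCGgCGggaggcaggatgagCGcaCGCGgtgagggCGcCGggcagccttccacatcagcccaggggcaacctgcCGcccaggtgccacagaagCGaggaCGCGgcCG
Igsf21 (chr4:140109311-140109510): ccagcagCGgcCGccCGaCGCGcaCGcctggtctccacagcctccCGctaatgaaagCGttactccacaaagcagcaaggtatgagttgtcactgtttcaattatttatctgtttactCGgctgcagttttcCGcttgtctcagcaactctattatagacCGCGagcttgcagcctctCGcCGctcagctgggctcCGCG

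These windows held 20, 23 and 16 CpG with no masked base and no base in an exon of a protein-coding transcript. CpG-dense sequence under the members was thus not limited to such exons. The *Gm26992* and *Sdccag8* members do overlap 5′ ends of transcripts that are not protein-coding, of *Tsix* and of the processed pseudogene *Gm38158*. *Gm26992* is a predicted gene on the X chromosome whose record overlaps *Tsix*, the antisense partner of *Xist* in X inactivation.

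Most members lay in introns, but exons made up more of them than of the surrounding gene bodies. In all, 644 of 1017 members (63.3%, exact 95% binomial interval 60.3 to 66.3%) had no base in an exon of any protein-coding transcript, 256 had some exonic bases but under 50%, and 117 (11.5%, exact 95% binomial interval 9.61 to 13.6%) had at least 50%. The intervals cover counting of peaks only. By bases, 15.6% of the 1.76 Mb under members was exonic, against 5.30% of the 858 Mb of gene body that could have held a member (over 5 kb from every protein-coding 5′ end). The flanks of the members, 1 member width on either side, were 8.27% exonic. Coding sequence made most of the difference from the gene bodies, with 11.9% of member bases against 2.52% of the gene bodies and 3.41% of the flanks. The 3′ UTR share was 3.60%, 2.75% and 4.80% in the same order.

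**Figure D1:**
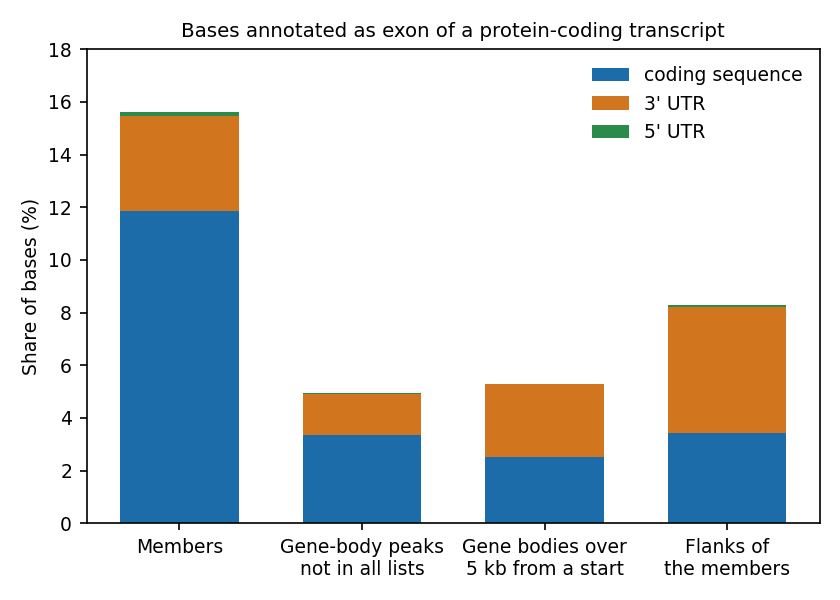
Share of bases (%) annotated as coding sequence, 3′ UTR or 5′ UTR of a protein-coding transcript, for the members, the gene-body LGE peaks not in all lists, all gene bodies over 5 kb from a start and the flanks of the members. The bar of the members reaches 15.6%, and the other bars reach 4.96% to 8.27%.

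The 2543 gene-body LGE peaks that met the limits on position but were not in all lists were 4.96% exonic by bases, and 4.52% of them had at least 50% exonic bases. They were also narrower, with a median width of 733 bp against 1531 bp for the members, and had a lower median −log10 q (the q-value is the peak caller's p-value corrected for many tests) of 2.37 against 7.38. The part of width and strength in the exon shares was not tested.

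The exonic members lay most often at last exons. Of the 117 members with at least 50% exonic bases, 77 touched the last exon of the host's main transcript, the one with the longest coding sequence, and 31 touched an inner exon. Coding bases exceeded 3′ UTR bases in 82 of them. Over all members inside the main transcript, last exons held 7.80% and inner exons 8.63% of the bases, against 1.29% and 1.28% of the same hosts' bases over 5 kb from a start. Over all genes with such bases, last exons held 2.94% and inner exons 2.20%, so the excess was smaller against them. First introns held 19.2% of member bases, 25% of the hosts' bases and 20.7% of those of all genes with such bases.

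Along the transcript, member bases became more frequent towards the 3′ end. Counting from the 5′ end, 5 equal parts of the main transcript held 10.8, 15.8, 19.7, 26 and 27.7% of them. The hosts' own bases that could hold a member were spread more evenly, with 17.7, 20.5, 20.8, 20.5 and 20.5% in the same parts. Long hosts weigh most in these pooled bases, while the 5 kb limit takes a larger part of the 5′ end of short hosts. The part of that limit in the rise was not tested. Another 108 members lay inside the gene record of the host but outside its main transcript and are not in these shares.

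Fold enrichment, the ratio of reads in a peak to the local background as the peak caller wrote it, named the strongest exonic members. In *Slc8a2* the member at chr7:16158353-16159880 was 70.5% exonic and had fold enrichments of 6.37 in LGE, 5.50 in MGE, 5.69 in CGE and 5.40 in CTX. The member of *Cavin1* at chr11:100958057-100959708 reached 6.12 in LGE, 5.22 in MGE, 4.77 in CGE and 5.01 in CTX. Both peaks lay over the last exon, and their lowest coverage by another list was 99.3% and 98.5%. In *Ankrd33b* the member at chr15:31296868-31298328 had 6.02 in LGE, 4.00 in MGE, 4.63 in CGE and 4.22 in CTX. *Trpm1*, a channel of retinal bipolar cells, held a wholly exonic member of 1380 bp at 6.01 in LGE, 4.24 in MGE, 5.11 in CGE and 5.17 in CTX. *Cacna1c*, an L-type calcium channel, held a member that was 72.9% exonic, at 5.63 in LGE, 4.59 in MGE, 4.80 in CGE and 4.50 in CTX. The last 2 lay outside the main transcript of their host, in exons of other transcripts.

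Several hosts had members that lay wholly in exons, 22 in all (2.16%, beside 2.20% of the gene-body peaks not in all lists). The widest of these was 3442 bp in *Zdbf2*, an imprinted gene, at chr1:63307749-63311190, with fold enrichments of 3.14 in LGE, 3.11 in MGE, 2.97 in CGE and 2.77 in CTX. *Kbtbd11*, a BTB-kelch gene, had 2969 bp at chr8:15026872-15029840, with 4.11 in LGE, 3.69 in MGE, 4.48 in CGE and 4.55 in CTX. *Elfn2*, which encodes a leucine-rich repeat membrane protein, had 2791 bp at chr15:78671656-78674446, with 3.57 in LGE, 3.08 in MGE, 3.30 in CGE and 3.28 in CTX. In these 3 genes the member lay at the last exon. *Evpl*, for envoplakin of the skin barrier, had 2488 bp of coding sequence alone, with 4.09 in LGE, 3.46 in MGE, 3.66 in CGE and 3.57 in CTX, and this member was fully covered in all 3 other lists. *Anks1b* had 2330 bp outside the main transcript, of which 5.32% was coding, with 3.73 in LGE, 3.52 in MGE, 3.39 in CGE and 2.88 in CTX.

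CpG content differed between the exonic and the intronic members. The CpG observed to expected ratio, the count of CG over that given by the C and G content, had a median of 0.542 in members with at least 50% exonic bases, 0.388 in those with some exonic bases and 0.277 in those with none. Median GC content fell in the same order, from 58.6% to 55.4% and 50.5%, and the median −log10 q of the LGE peak from 17.4 to 11.4 and 6.13. A ratio of at least 0.6 with a GC content of at least 50%, the usual marks of a CpG island, was met by 71 members (6.98%). Of these, 38 had at least 50% exonic bases and 13 had none.

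As a whole, the members were more CpG-dense than the sequence around them and less so than peaks at starts. Their median ratio was 0.326, beside 0.222 for the gene-body peaks not in all lists, 0.343 for peaks in all lists that lay outside genes and 0.517 for peaks in all lists within 5 kb of a start. The quartiles of the members, 0.235 and 0.438, overlapped those of each of these classes. Over pooled bases the ratio was 0.373 in the members, 0.234 in their flanks and 0.194 in the gene bodies that could hold a member, with GC contents of 52.6%, 47% and 42.3%.

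**Figure D2:**
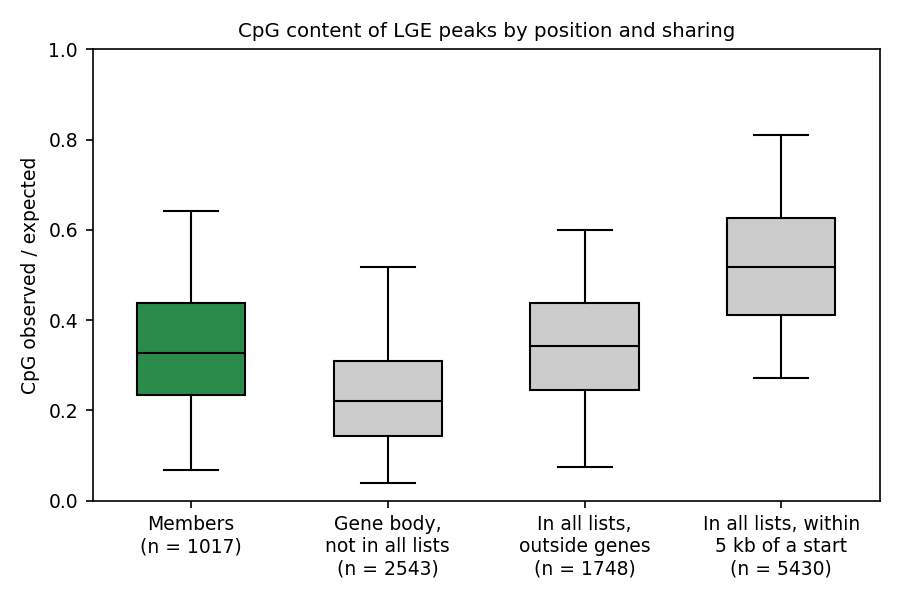
CpG observed to expected ratio of LGE peaks in 4 classes, with boxes at the quartiles, a line at the median and whiskers at the 5th and 95th percentiles of peaks. The members' median of 0.326 lies close to that of shared peaks outside genes (0.343) and below that of shared peaks near starts (0.517).

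The strongest members by LGE fold enrichment were narrow, free of exonic bases and mostly repeats; the ranking used LGE values, so these describe the choice. The 10 strongest were in *Cntnap5b*, *Acvr1*, *Rora*, *Atl2*, *5730522E02Rik*, *Mindy2*, *Pde4b*, *Mepe*, *4921539E11Rik* and *Gm26992*. None had an exonic base, 8 had at least 50% of their bases masked as repeats, their median width was 710 bp and their median CpG ratio was 0.0123. Among all members, 54 (5.31%) were masked to that extent, fewer than the 9.63% of the gene-body peaks not in all lists. In 37 of the 54 masked members at least 0.6 of the bases, as a fraction, equalled the base 1 to 6 positions before. This was so in 0 of the other 963 members. The masked members had a median fold enrichment of 4.00 against 3.09 and a median width of 682 against 1571 bp. Read mapping in repeats was not examined here, and its part in these values was not tested.

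**Figure D3:**
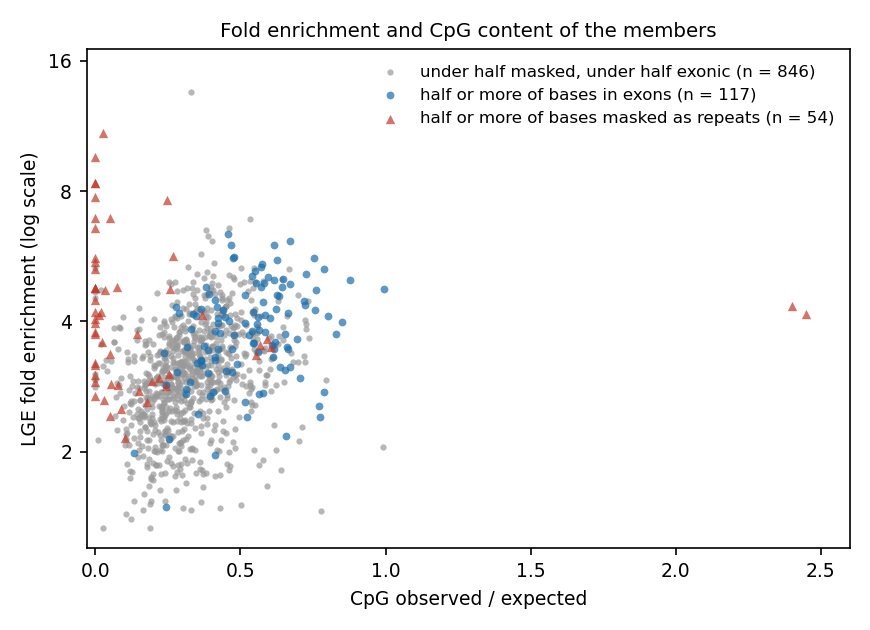
LGE fold enrichment (log scale) against the CpG observed to expected ratio of each member, split into members with at least 50% of bases masked as repeats (triangles, n = 54), members with at least 50% exonic bases and the rest. The strongest masked members, up to a fold of 10.9, lie near the left edge with almost no CpG, 2 masked members in *Mecom* and *Gm12394* lie alone at the far right, and most exonic members lie above a ratio of 0.326, the median of all members.

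The strongest member, at chr1:100180097-100180400 in intron 10 of *Cntnap5b*, was only 304 bp wide and free of masked bases. A lack of masking does not show that a sequence is unique, and read mapping was not examined for this member either. Its fold enrichments were 13.6 in LGE, 12.54 in MGE, 16.7 in CGE and 11 in CTX, and it was fully covered in every list. The *Acvr1* member reached 10.9 in LGE, 8.87 in MGE, 8.74 in CGE and 9.09 in CTX. In *Rora* the member in the first intron had 9.56 in LGE, 7.44 in MGE, 7.02 in CGE and 7.32 in CTX. *Atl2*, a GTPase that shapes the endoplasmic reticulum, had 8.37 in LGE, 7.31 in MGE, 7.12 in CGE and 6.36 in CTX in its first intron. All 4 stood above the 75th percentile of member fold enrichments in each list, which lay between 3.47 and 3.77. In LGE this was set by the choice. *Pde4b*, a cAMP phosphodiesterase, had 7.63 in LGE, 7.03 in MGE, 6.67 in CGE and 6.67 in CTX. *Mepe*, a secreted phosphoprotein of bone, had 6.94 in LGE, 6.32 in MGE, 5.98 in CGE and 6.20 in CTX and one of the highest −log10 q of the members, at 178 in LGE, 97.6 in MGE, 165 in CGE and 163 in CTX. The *Mepe* member was 95.7% masked, with 0.817 of its bases, as a fraction, equal to the base 5 positions before.

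Ranked by −log10 q in place of fold enrichment, 5 of the 10 leading members had at least 50% exonic bases; this ranking was added after the values were seen. The first was in the first intron of *Cfap77*, a ciliary gene, at chr2:28999636-29000737, with a −log10 q of 278 in LGE, 71.6 in MGE, 155 in CGE and 388 in CTX. It was 1102 bp wide, fully covered in every list, had no exonic base and was 37.4% masked. The members in *Mepe* and *Asic4* were also among these 10, at 95.7% and 100% masked. *Speg*, a kinase of striated muscle, held a member of 2715 bp that was 77.4% coding exon, with 180.4 in LGE, 100.5 in MGE, 215 in CGE and 182 in CTX. *Kcnk3*, a background potassium channel, held one over its last exon with 108 in LGE, 49.5 in MGE, 118 in CGE and 94.4 in CTX.

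The widest members had low fold enrichments. Widths ran from 279 to 7889 bp with a median of 1531 bp, and 14 members were at least 5000 bp wide. *Bcas3* held the widest, 7889 bp in intron 24, with fold enrichments of 1.77 in LGE, 1.70 in MGE, 1.94 in CGE and 1.76 in CTX. In *Hlcs*, which attaches biotin to carboxylases, 7034 bp had 1.91 in LGE, 1.84 in MGE, 1.72 in CGE and 1.81 in CTX. *Ets1*, a transcription factor, had 6736 bp at 2.08 in LGE, 2.36 in MGE, 2.22 in CGE and 1.82 in CTX. The member of 6072 bp in *Kcnq1*, a potassium channel of an imprinted gene cluster, lay nearest to the start of *Cdkn1c*, a growth inhibitor of the same cluster, 93.2 kb away. Its fold enrichments were 1.80 in LGE, 2.32 in MGE, 1.88 in CGE and 1.96 in CTX, and its coverage was 53.3% in MGE, 73.6% in CGE and 73.6% in CTX. A further member of 6214 bp lay in the long record of *Gm20388* taken up with the hosts.

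Above the 50% that the rule required, the lists covered the members to different extents. The median coverage was 92.1% in MGE, 100% in CGE and 98.2% in CTX, and 252, 538 and 403 members were fully covered there. At least 90% of the bases were covered in each of the 3 lists for 418 members (41.1%, exact 95% binomial interval 38.1 to 44.2%), where 24.4% of all LGE peaks and 49.8% of the 8271 LGE peaks that met the sharing limit did. The rule set the sharing limit, so the higher share than in all LGE peaks is part of the choice, and the members were below the shared peaks as a whole. The share of members was 24% when the rule was started from the CGE list and 68.8% with 80% of a peak required to be covered. MGE gave the lowest coverage for 517 members, CTX for 268 and CGE for 117, with ties in 115. The order followed the size of the lists, MGE being the smallest and CGE the largest by bases, and the widest overlapping peak was wider than the member in 43.9%, 73.4% and 64% of cases in MGE, CGE and CTX. Read depth is not in the lists. The study's text gives a depth per library that differs between regions, and its part in this order was not tested.

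**Figure D4:**
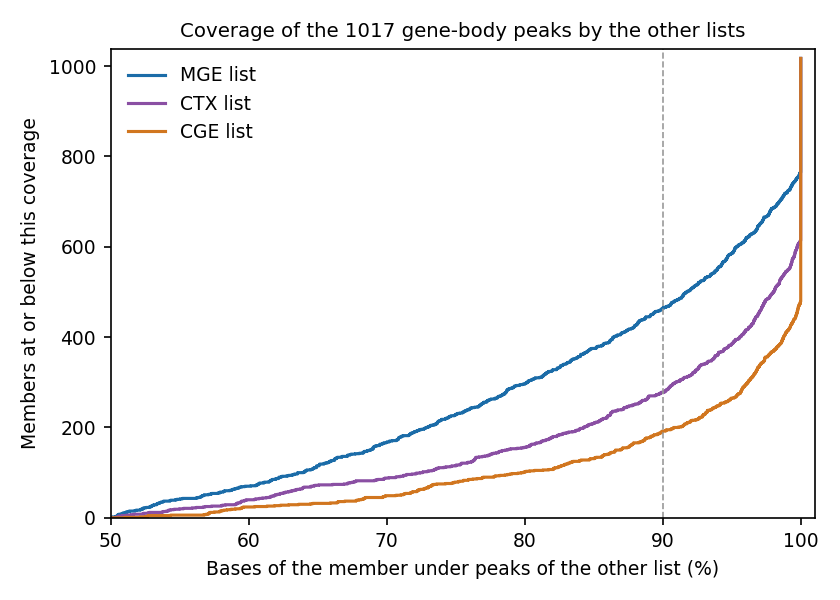
Number of members (of 1017) at or below each coverage by the MGE, CGE and CTX lists, in percent of the member's bases; the dashed line is at 90%. The MGE curve lies above the others between the ends of the axis, with 553 members at 90% or more, against 739 in CTX and 825 in CGE.

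Fold enrichments of the peaks over the members had medians of 3.11 in LGE, 2.97 in MGE, 2.93 in CGE and 2.84 in CTX. The median −log10 q was 7.38, 4.78, 11.1 and 8.35 in the same order, against 4.21, 3.38, 4.61 and 3.81 over the whole lists. These values depend on depth and are not compared between lists. A gene-body LGE peak was a member more often the stronger it was. From the weakest to the strongest of 5 equal groups by LGE q, 5.62, 11.2, 18, 34.8 and 73.2% of the 712 peaks in a group were members.

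Coverage was most uneven in 5 members, 4 of them without exonic bases. They had the widest gap between their best and least covered list and were in *Rbfox1*, *Tcf7l2*, *4931406B18Rik*, *Nav1* and *Vti1a*. *Rbfox1*, a neuronal splicing factor, was covered 50.1% in MGE, 93.6% in CGE and 99.7% in CTX over 1371 bp. *Nav1*, a microtubule-binding neuron navigator, was covered 78.6% in MGE, 100% in CGE and 50.4% in CTX. *Vti1a*, a SNARE protein of vesicle fusion, was covered 50.5% in MGE, 100% in CGE and 100% in CTX. In 4 of the 5 MGE was the least covered list, and in *Nav1* it was CTX.

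The members nearest the limits were close to peaks left out. The least covered members, in *Rbfox1*, *Tcf7l2* and *4931406B18Rik*, had a lowest coverage of 50.1%, 50.1% and 50.3%. Peaks just outside, in *Kank1*, *Cdh22* and *Lgr4*, had 49.9%, 49.8% and 49.5%. The members nearest a start, in *Rcsd1*, *Tph1* and *Cplx4*, lay 5010, 5032 and 5064 bp from it, and the peaks left out in *Sema3b*, *Mon1a* and *Sema3f* lay 4992, 4959 and 4956 bp away. The median distance of a member to the nearest protein-coding 5′ end was 22.5 kb, 228 lay within 10 kb and 133 lay over 100 kb away. The nearest start was that of a host for 729 members and that of another gene for 288.

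Host genes were long, and most held 1 member. Of 15890 protein-coding genes with any sequence over 5 kb from a start, 700 held a member (4.41%), and these had a median of 59.3 kb of such sequence against 19.6 kb over all of them. The share that held a member rose with that length, from 1.46% of genes with up to 10 kb to 3.75% at 10 to 30 kb, 4.86% at 30 to 100 kb, 9.71% at 100 to 300 kb and 20.8% above 300 kb. A single member was found in 554 hosts, 2 in 76 and 3 or more in 70, and the last group held 329 of the 1017 members. Per megabase of available gene body, members were sparsest on chromosome 13 (0.424, 15 members) and densest on chromosome 11 (2.20, 99 members), with 1.18 overall.

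The 10 hosts with the most members were *Gm20388*, *Lrmda*, *Fgfr2*, *Pax3*, *Fto*, *Ebf1*, *Cfap77*, *Slit3*, *Iqch* and *Cadps2*, with 21, 19, 13, 11, 11, 10, 9, 9, 7 and 7. *Vti1a* also had 7 and was left out because its members covered fewer bases. Some of these counts rest on very long gene records. The record of *Gm20388* spans 4435 kb of chromosome 8 with 71 other protein-coding genes wholly inside it, and its members had their nearest start at 11 different genes, among them *Irf8*, *Foxf1*, *Gse1* and *Zfpm1*. The record of *Fgfr2* spans 2961 kb with 29 other genes inside, and none of its 13 members lay in the main transcript of 102 kb; 6 were nearest to the start of *Bub3*, 3 to that of *Fgfr2*, 3 to that of *Gpr26* and 1 to that of *Acadsb*. For 27 members such a record was the only host.

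*Pax3*, a paired-box transcription factor of the dorsal neural tube and neural crest, held the densest group among these 10 hosts. Its 11 members covered 22.5% of the 95.9 kb gene (chr1:78101267-78197134), and 10 had no exonic base. Of the part of the gene over 5 kb from a start, 24.2% in LGE, 31.2% in MGE, 34.8% in CGE and 26.3% in CTX lay under peaks, where over all genes the lists covered 0.580%, 0.502%, 0.764% and 0.745%. Fold enrichments of the members in LGE were modest, from 1.49 to 3.19, and the promoter, the 2 kb upstream of the gene, was fully covered in every list.

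**Figure D5:**
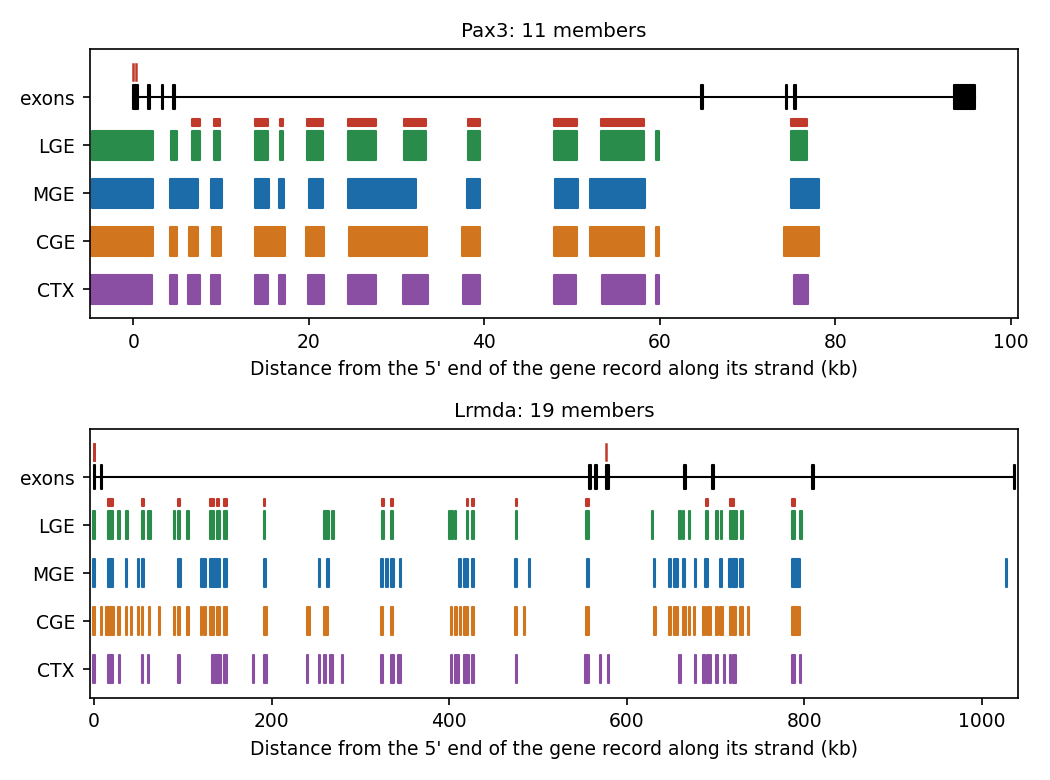
Peaks of the 4 lists over *Pax3* (upper) and *Lrmda* (lower) by distance in kb from the 5′ end of the gene record. Black boxes are exons of protein-coding transcripts, red ticks above them are annotated starts, red bars above the LGE row mark the members, and the 11 members of *Pax3* lie along a 95.9 kb gene, most of them between exons, while the 19 of *Lrmda* are spread over 1036 kb.

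*Lrmda*, a gene of melanocyte differentiation, held 19 members over 1036 kb, all without exonic bases and all nearest to its own starts. Its promoter was covered 58.7% in LGE, 58% in MGE, 57% in CGE and 56.8% in CTX. The peaks covered 5.31% in LGE, 6.88% in MGE, 8.66% in CGE and 7.23% in CTX of its sequence away from starts, and a marked promoter lay within 100 kb of the gene at *Zfp503*, a zinc-finger repressor of the developing forebrain. *Fto*, an RNA demethylase, had 11 intronic members with fold enrichments in LGE of 2.12 to 3.45. Its sequence away from starts was covered 8.06% in LGE, 7.76% in MGE, 12.2% in CGE and 7.87% in CTX. *Cfap77* had 9 members over 128 kb beside *Barhl1*, a homeobox gene of the hindbrain and diencephalon with a marked promoter. In *Iqch* the coverage was 5.50% in LGE, 11.7% in MGE, 9.03% in CGE and 17.5% in CTX, so that CTX had the most and LGE the least.

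*Ebf1*, a helix-loop-helix factor of striatal and B cell differentiation, differed between lists at its promoter more than in its body. The promoter was covered 18.8% in LGE, 93.2% in MGE, 28.6% in CGE and 91.1% in CTX. Its 10 members lay in a body covered 4.72% in LGE, 9.66% in MGE, 8.53% in CGE and 8.04% in CTX. LGE was the lowest list in both, and CGE was also low at the promoter. For *Slit3*, a ligand of Robo receptors in axon guidance, the promoter was covered 59.7% in LGE, 33.6% in MGE, 39.5% in CGE and 47.6% in CTX and the body 8.67% in LGE, 4.02% in MGE, 9.85% in CGE and 10.1% in CTX. *Cadps2*, a priming factor for dense-core vesicles, had 7 members and a promoter covered 52.5% in LGE, 52.5% in MGE, 53.3% in CGE and 52.5% in CTX.

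Hosts had a marked promoter more often than other genes. At least 50% of the promoter lay under LGE peaks in 163 of 700 hosts (23.3%, exact 95% binomial interval 20.2 to 26.6%), against 6.52% of all protein-coding genes and 6.41% of genes that could have held a member and did not. In all 4 lists 136 hosts were marked (19.4%, against 4.72% of all genes). The share was 22% in hosts with 1 member, 28.9% with 2 and 27.1% with 3 or more, and the intervals of these groups overlapped. Within each band of length the genes with a marked promoter held a member more often, for example 16.2% of 241 against 3.75% of all 4455 at 10 to 30 kb and 26.8% of 71 against 20.8% of 523 above 300 kb.

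Most hosts nevertheless had no marked promoter. No base of the promoter was covered in LGE in 306 hosts (43.7%), beside 75.8% of all genes. For 248 members (24.4%) no covered base lay within 2 kb on either side of the 5′ end of any host. Centres of 235 members (23.1%) lay within 50 kb of the start of some gene with a marked promoter, as did 13% of the gene-body peaks not in all lists and 5.70% of the bases that could hold a member. Members and promoters came from the same lists, and broad domains that were called as several peaks cannot be told apart here from separate sites.

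Among groups of genes set by symbol, developmental transcription factors held the largest part of the members. Of 240 such genes with sequence over 5 kb from a start, 55 were hosts (22.9%, where 4.41% of all such genes were), and they held 106 members, 5.44 per Mb against 1.18 overall. Their available sequence was no longer than that of other genes, with a median of 18.4 kb against 19.6 kb. At 10 to 30 kb 14 of 47 were hosts (29.8%), and above 300 kb 7 of 19 (36.8%). These members were more often free of exonic bases (76.4% against 63.3%) and had a lower median fold enrichment of 2.38 against 3.11. Their median −log10 q was higher, at 8.52 against 7.38, and their median width larger, at 1753.5 against 1531 bp. Values given by list for the members of these groups are fold enrichments. In each group except the last, up to 4 hosts were named by the largest LGE fold enrichment of their members. A high LGE value in these is part of the choice. Of the 55 hosts, 25 had a marked promoter in LGE (45.5%, against 23.3% of all hosts).

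The strongest members of this group were in *Rora*, *Pbx3*, *Pax9* and *Runx3*. *Pbx3*, a homeodomain partner of Hox and Meis proteins, had 5.34 in LGE, 3.49 in MGE, 3.18 in CGE and 3.15 in CTX in intron 2. *Pax9*, a paired-box factor of pharyngeal and limb tissue, had 4.92 in LGE, 2.94 in MGE, 3.28 in CGE and 3.99 in CTX over its last exon. *Runx3*, a factor of sensory neurons and T cells, had 4.28 in LGE, 3.76 in MGE, 3.98 in CGE and 3.62 in CTX over its last exon. The hosts with 3 or more members in this group numbered 12 and, chosen after the values were seen, included *Pax7* with 5 members, the cardiac and endodermal factor *Gata4* with 4, *Ebf3* and *Zfhx3* with 4 each, and *Lmx1b* and *Tfap2b* with 3 each. In *Pax7* the promoter was covered 80% in LGE, 97.2% in MGE, 84.2% in CGE and 84.2% in CTX. In *Gata4* it was covered 26.1% in LGE, 22.7% in MGE, 36.4% in CGE and 26.1% in CTX. In *Tfap2b* it was covered 0% in LGE, 2.25% in MGE, 0% in CGE and 0% in CTX. None of the 4 *Gata4* members lay in its main transcript. With 2 kb on either side of the 5′ end, *Gata4* was covered 63.1% in LGE, 61.4% in MGE, 68.2% in CGE and 63.1% in CTX. The same window of *Pax7* was covered 40.0% in LGE, 48.6% in MGE, 42.1% in CGE and 42.1% in CTX.

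Axon guidance genes had 13 hosts of 72 (18.1%) with 22 members, a median of 42.8 kb available and 1.88 members per Mb, and 1 of these hosts had a marked promoter (7.69%, against 23.3% of all hosts). *Sema5b*, a semaphorin, had the strongest at 4.61 in LGE, 3.72 in MGE, 4.25 in CGE and 3.73 in CTX, over an inner exon. *Ntng2*, a netrin anchored to the membrane, followed at 4.22 in LGE, 4.15 in MGE, 3.40 in CGE and 3.39 in CTX. In *Slit3* the strongest of its members had 3.83 in LGE, 3.13 in MGE, 3.78 in CGE and 3.74 in CTX. *Draxin*, a repulsive guidance protein, had 3.74 in LGE, 2.88 in MGE, 3.53 in CGE and 3.71 in CTX.

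Synaptic adhesion and scaffold genes had 15 hosts of 77 (19.5%), but these genes are long, with a median of 107 kb available, and held 0.859 members per Mb, under the overall density. Beside *Cntnap5b*, the strongest were in last exons. *Lrfn1*, a leucine-rich synaptic protein, had 5.14 in LGE, 3.83 in MGE, 4.66 in CGE and 4.55 in CTX. *Nrxn2*, a neurexin, had 4.45 in LGE, 3.78 in MGE, 3.41 in CGE and 4.64 in CTX. *Dlgap1*, a postsynaptic scaffold, had 4.44 in LGE, 3.87 in MGE, 3.95 in CGE and 3.91 in CTX.

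Ion channel genes had 25 hosts of 159 (15.7%) with 35 members, of which 9 (25.7%) had at least 50% exonic bases, against 11.5% of all members. Their median available sequence was 36.8 kb and they held 1.94 members per Mb. A marked promoter was found in 10 of their hosts (40%, against 23.3% of all hosts). After *Trpm1* and *Cacna1c*, *Kcnk3* had 4.98 in LGE, 4.31 in MGE, 4.25 in CGE and 4.18 in CTX. *Kcnn4*, a calcium-activated potassium channel, had 4.77 in LGE, 3.84 in MGE, 4.32 in CGE and 3.43 in CTX. Transmitter receptors had 13 hosts of 152 (8.55%), with a median of 23.1 kb available and 1.15 members per Mb, close to the overall density. The glutamate receptor *Grm5* had 4.92 in LGE, 4.21 in MGE, 4.27 in CGE and 4.80 in CTX over its last exon. The kainate receptor *Grik4* had 4.66 in LGE, 3.59 in MGE, 4.90 in CGE and 4.22 in CTX. *Grin2d*, an NMDA receptor subunit, had 4.00 in LGE, 3.80 in MGE, 3.79 in CGE and 3.71 in CTX, and the glycine receptor *Glra1* had 3.53 in LGE, 2.90 in MGE, 3.05 in CGE and 3.27 in CTX in its first intron.

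Signalling genes had 12 hosts of 114 (10.5%) and 30 members, of which 13 were those in the long record of *Fgfr2*, with a median of 28.5 kb available. *Hhipl1*, related to a hedgehog-binding protein, had 5.07 in LGE, 4.61 in MGE, 4.12 in CGE and 3.76 in CTX. *Fgf18*, a fibroblast growth factor, had 4.80 in LGE, 4.14 in MGE, 4.19 in CGE and 4.41 in CTX in its last intron. *Gdf10*, a BMP family ligand, had a member of 729 bp in coding sequence alone, with 3.81 in LGE, 4.56 in MGE, 4.19 in CGE and 3.73 in CTX. Collagen and matrix genes had 7 hosts of 95 (7.37%), with a median of 92.4 kb available and 0.759 members per Mb against 1.18 overall. They were led by *Adamts20*, *Col9a2*, *Col13a1* and *Adamts14* with LGE fold enrichments of 4.80, 4.23, 4.11 and 3.71. The *Adamts20* member was 94.1% masked as repeats.

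Other groups held few members. Cadherins had 3 hosts of 80 (3.75%, against 4.41% of all genes with available sequence). These were *Cdh13*, *Dchs1* and *Cdh23*, with LGE fold enrichments of 4.62, 3.40 and 3.31. The cadherins had a median of 66.4 kb available and 0.221 members per Mb, against 1.18 over all genes. Zinc-finger genes had 11 hosts of 412 (2.67%), led by *Zfp652*, *Zfp229*, *Zfp697* and *Zfp92* at 4.93, 4.66, 4.25 and 4.13. The zinc-finger genes had a median of 10.6 kb available and 1.08 members per Mb, close to the 1.18 over all genes. The ribosomal and proteasome group had 1 host of 46, *Rps6kl1*, which is a kinase-like gene that the symbol pattern took in. None of the 378 olfactory and vomeronasal receptor genes with available sequence was a host, and their median available sequence was 3.72 kb; of all genes with up to 10 kb, 1.46% were hosts. In total 155 hosts were in a group and 545 in none.

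The last group was made of loci and cell markers named in the study. Of 23 such genes, 14 had sequence over 5 kb from a start and 2 were hosts (14.3%, where 4.41% of all such genes were), *Pax9* and *Rbfox3*, with 1 member each. *Rbfox3*, which encodes the neuronal marker NeuN, held 12 LGE peaks away from starts, of which the member in intron 2 had 2.64 in LGE, 2.74 in MGE, 2.56 in CGE and 2.53 in CTX. *Myt1l*, a neuronal transcription factor, held 3 such peaks, *2210408I21Rik* 2 and *Lhx2*, *Nr2f1* and *Dennd1a* 1 each, and none of these reached 50% coverage in every other list.

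Some members lay at starts that the rule did not count. Within 5 kb of the 5′ end of a transcript that is not protein-coding were 316 members (31.1%, exact 95% binomial interval 28.2 to 34%), and 129 overlapped such an end. By their centres the share was 28.7%, beside 19.3% of the gene-body peaks not in all lists and 18% of the bases that could hold a member. Many of these transcripts are further, non-coding transcripts of the host itself. With genes that are not protein-coding alone, the shares by centre were 13.3%, 10.1% and 8.09%.

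The strongest members over such an end were in *Gm26992*, *Sdccag8*, *Ncf1*, *Hhipl1* and *Kcnk3*. The *Gm26992* member, at chrX:103447338-103448559, overlapped a 5′ end of *Tsix* and had fold enrichments of 6.90 in LGE, 4.94 in MGE, 5.66 in CGE and 5.44 in CTX, with full coverage in every list. In *Sdccag8*, a centrosomal gene, the member at chr1:176834616-176836121 overlapped the processed pseudogene *Gm38158* and had 6.58 in LGE, 6.11 in MGE, 6.90 in CGE and 6.46 in CTX. *Ncf1*, a subunit of the phagocyte oxidase, had 5.59 in LGE, 4.97 in MGE, 5.29 in CGE and 5.30 in CTX at a non-coding transcript of its own. The *Hhipl1* member overlapped the start of the antisense gene *4930478K11Rik*, and that of *Kcnk3* the start of a non-coding transcript of *Kcnk3*.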

How the data were processed

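CUT&Tag for H3K27me3 was done on nuclei of 4 regions of the embryonic mouse forebrain. The authors aligned reads to GRCm38 (mm10) with Bowtie2, removed blacklisted regions and PCR duplicates (Picard), merged the samples of a region with SAMtools, and ran MACS in its broad mode. Its version and any control are not given in the sources used here. The deposited lists give, per peak, a fold enrichment (the ratio of reads to the local background), a −log10 q-value and a score that is the −log10 q-value times 10 cut to a whole number, which was not used; −log10 p was not used either. Calls on merged samples carry no spread between samples, and a deeper library can give more and wider peaks.

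The members and the gene lists were chosen with earlier results of these data known. Peaks were placed on GENCODE mouse release 21 with Python 3.11.15, and sequence came from the RefSeq copy of GRCm38. Exons were those of all protein-coding transcripts, promoters the 2 kb upstream of a gene, called marked when at least 50% of their bases were covered. Intervals are exact binomial (SciPy) and cover counting error only. Named were the 10 strongest members by LGE fold enrichment, the 5 widest, the 10 hosts with the most members, the 5 most exonic, the 5 strongest with no exonic base, the 3 strongest with at least 50% exonic bases (for the sequences), up to 4 hosts per gene list, members at the limits, the 5 with the most uneven coverage, up to 5 over a non-coding start, and the study's own loci. The hosts per gene list and the members over a non-coding start were taken by LGE fold enrichment. The alternatives were 17 other choices of overlap, threshold, start, list, window or exon set. The steps were tested on simulated intervals. Peaks on other contigs were left out.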

Additional observations from a re-analysis of the deposited data

How the results depend on the processing

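The share of members without exonic bases was above 50% under every alternative except the one that counted only gene records' 5′ ends as starts. With 80% of a peak required to be covered, 608 members in 456 hosts met the rule, 59.2% had no exonic base, the median CpG ratio was 0.343 and 68.8% were covered over at least 90% in each list. With q under 0.001 in every list there were 586 members in 438 hosts, 27.2% of them with a marked promoter, and the shares that were at least 50% exonic, free of exonic bases and covered over at least 90% were 16%, 54.4% and 53.4%, with a CpG ratio of 0.369. The exonic share, the share without exonic bases and the CpG ratio were 13.9%, 57.4% and 0.343 with 50% overlap of both peaks, 14.1%, 57.8% and 0.346 with lists of equal bases, 14.1%, 57.9% and 0.344 over 2 kb from a start, and 9.51%, 69.7% and 0.308 over 10 kb. Lists of equal bases gave 46.9% covered over at least 90%, and the rule started from the MGE or the CGE list gave 58.4% and 24%. Joining peaks less than 3 kb apart left 59.7% without exonic bases. The share within 5 kb of a non-coding start was 36.5% over 2 kb and 27.4% over 10 kb from a start. With every transcript's 5′ end counted as a start that share was 0 by construction, 70.0% had no exonic base and the CpG ratio was 0.304. With the gene record's 5′ end alone there were 1626 members in 1148 hosts, 45% had no exonic base, the CpG ratio was 0.383, 44.2% were covered over at least 90% and 41.2% lay near a non-coding start. Hosts had a marked promoter in 36.1% of cases with 2 kb on either side of the 5′ end (all genes 10.2%) and 56.3% with any 1 covered base (all genes 24.2%). The remaining values stayed within 1.5 times for counts and within the 95% interval for shares and the median, including those for 2 alternatives chosen after seeing the data, members inside the main transcript and the set without members masked over at least 50%. Beyond what the construction of an alternative shows, the cause was not tested. No paired analysis was possible because each list is 1 call on merged samples, and for the same reason no sample could be left out in turn. The study's text gives a sequencing depth per library, but the lists carry none and depth was not used here. A peak missing from a list may lie under its threshold.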
